A study of Homo sapiens with 24 samples.

Results

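The plasminogen activators, their receptor and inhibitors were followed as 5 genes, *PLAU*, *PLAT*, *PLAUR*, *SERPINE2* and *SERPINB2*. They were taken by symbol from the 25702 gene identifiers in the count files, and all 5 were among the 13356 genes that passed the filter on low counts. IMR90 cells are human lung fibroblasts, here 1 strain at passage 23 to 28 that carries ER:HRAS(G12V), an oncogenic RAS fused to the oestrogen receptor. Poly(A) RNA was sequenced in 24 libraries, 6 labelled biological replicates in each of 4 groups, and the p-values therefore describe the spread between cultures of this strain. Growing cells carried ER:HRAS(G12V) and the empty MSCV vector and received no agent, and shHMGA1 cells carried ER:HRAS(G12V) and the MSCV miR30 shHMGA1 hairpin, also without agent. RIS (RAS-induced senescence) cells carried ER:HRAS(G12V) and the empty vector and received 4OHT (4-hydroxytamoxifen), which switches the fusion protein on, for 6 days, and RIS+shHMGA1 cells carried the hairpin and received 4OHT for the same time. The growing controls thus carried the RAS fusion too, and the hairpin was 1 construct.

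Plasminogen is a circulating zymogen that tissue and urokinase-type plasminogen activators cleave into plasmin, a protease that dissolves fibrin and matrix and activates other proteases. Urokinase acts mainly at the cell surface, where a lipid-anchored receptor holds it, whereas tissue-type activator is best known from clot lysis. Serpins are inhibitors that trap a protease in a covalent complex, and senescent fibroblasts are known for secreting proteases and their inhibitors.

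Total counts ranged from 8698070 to 23103424 per library with a median of 10604083.5. Levels are CPM, read counts scaled to the depth of the library, with depths adjusted by TMM, which corrects for differences in RNA composition. The TMM factors were 0.851 to 1.12 in growing cells, 1.09 to 1.16 in shHMGA1, 0.946 to 1.13 in RIS and 0.736 to 0.956 in RIS+shHMGA1. Differences in CPM between groups depend on these factors. The targeted gene *HMGA1* lay between 54.4 and 262 CPM in the 12 hairpin libraries and between 639 and 861 CPM in the 12 vector libraries, so that the labels of the vectors hold. A pair of libraries stood apart from their groups. In growing replicate 4, the summed level of 6 genes of dividing cells was 98.6 CPM, against 462 to 776 CPM in the other growing libraries, and in RIS replicate 2 it was 604 CPM, against 64.6 to 101 CPM in the other RIS libraries. Both went against their labels, and results that rest on them are therefore given with and without them.

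All 8 fibroblast markers were detected in every library. Their summed level was 23055 to 41000 CPM in growing cells without replicate 4 and 14048 to 20272 CPM in shHMGA1. With 4OHT it was 5759 to 9347 CPM in RIS without replicate 2 and 4434 to 5836 CPM in RIS+shHMGA1. The collagen genes *COL1A1* and *COL1A2*, which reached 23307 and 9461 CPM, weigh heavily in this sum. Of the 5 genes described here, *SERPINE2* fell with 4OHT too, whereas *SERPINB2* and *PLAUR* rose. The part of the fall in marker level in the differences of these genes was not tested. In bulk RNA fewer cells of a type and less RNA per cell cannot be told apart. Markers of other cells were few. The 4 monocyte markers summed to at most 3.43 CPM in a library, with 0 to 7 counts of *PTPRC* and 0 to 2 of *ITGAM*, and the 4 epithelial markers to at most 1.68 CPM. Of the 4 endothelial markers only *TEK* passed the filter on low counts, whereas *PECAM1*, *CDH5* and *VWF* reached at most 10, 5 and 19 counts. The endothelial sum, mostly *TEK*, was 76.5 to 109.7 CPM in growing cells without replicate 4, 70.2 to 124 CPM in shHMGA1, 13.9 to 29.3 CPM in RIS without replicate 2 and 15.2 to 22.6 CPM in RIS+shHMGA1.

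The inhibitor *SERPINB2* rose most under 4OHT, the receptor *PLAUR* rose 1.52-fold in vector cells, the inhibitor *SERPINE2* fell, and neither activator passed the test in a comparison of the full groups. These statements hold without the libraries that stand apart for RIS against growing, and with all libraries for *SERPINB2* and *SERPINE2* in RIS+shHMGA1 against shHMGA1. A gene passed the test, in edgeR's quasi-likelihood fit, with a Benjamini-Hochberg adjusted p under 0.01 and a change of more than 0.58 on the log2 scale in either direction.

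**Figure D1:**
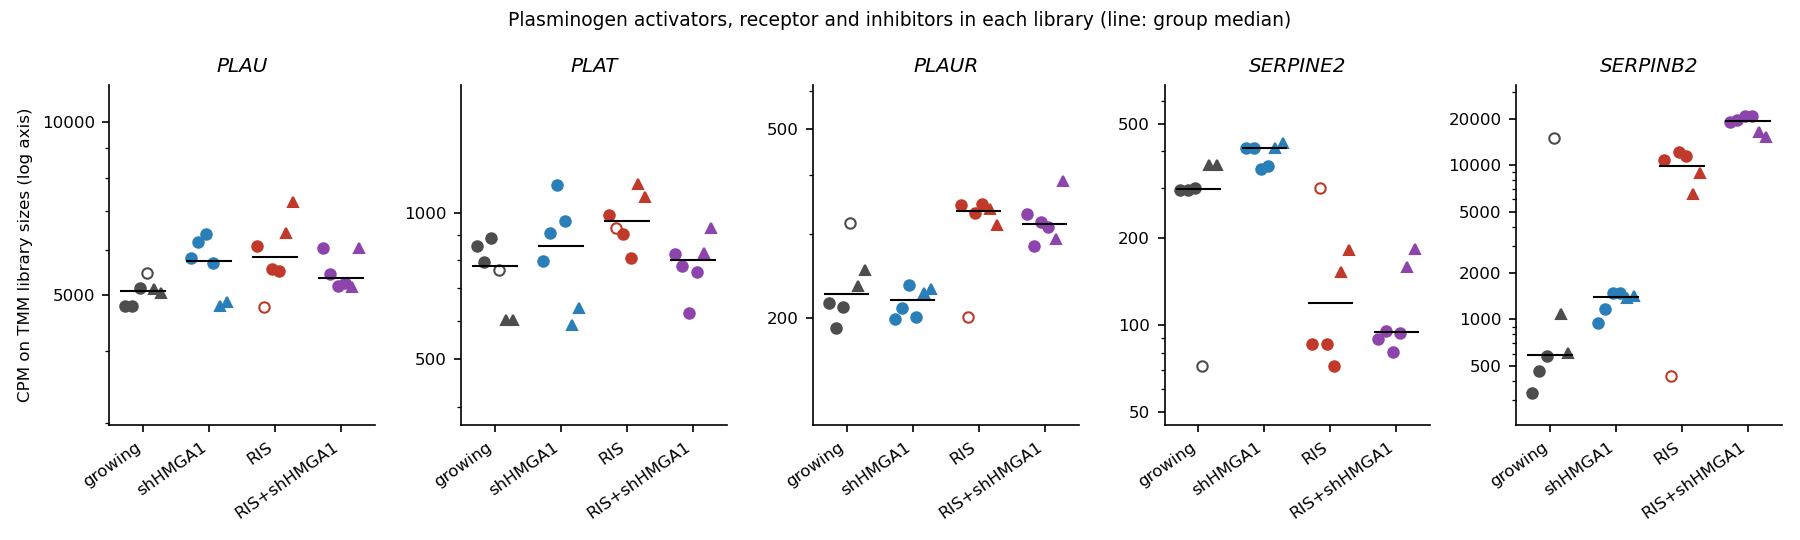
Level of each of the 5 genes in each of the 24 libraries by group, in CPM on a log axis. Points are libraries, triangles those numbered 5 and 6, open circles growing replicate 4 and RIS replicate 2, and lines the group medians. *SERPINB2* lies between 15208 and 20855 CPM in RIS+shHMGA1 and, without the open circle, between 332 and 1085 CPM in growing cells.

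Urokinase-type plasminogen activator, encoded by *PLAU* (chr10:75668935-75677254, GRCh37, plus strand, 11 exons in the canonical transcript), was abundant in every group. It ranged from 4788 to 5469.5 CPM in growing cells (median 5087), from 4785 to 6387 CPM in shHMGA1 (median 5746), from 4766 to 7266 CPM in RIS (median 5833) and from 5169 to 6048 CPM in RIS+shHMGA1 (median 5351). The 4 groups overlapped, with a highest library only 1.52 times the lowest in RIS, where the range was widest. The difference between RIS and growing cells was 0.23 ± 0.12 on the log2 scale (SE, 95% interval −0.020 to 0.48, edgeR adjusted p = 0.19). Without the pair of libraries that stand apart it was 0.31 (0.069 to 0.55, edgeR adjusted p = 0.024), and the 5 remaining RIS libraries then lay above all 5 remaining growing libraries. *PLAU* differed by −0.025 (−0.27 to 0.22) between RIS+shHMGA1 and shHMGA1 and by −0.10 (−0.35 to 0.15) between RIS+shHMGA1 and RIS. A change as large as the threshold of 0.58 lies outside both intervals, which take the TMM factors as given. As a share of all counts, without these factors, *PLAU* took 0.550% to 0.701% in shHMGA1 and 0.526% to 0.760% in RIS. In RIS+shHMGA1 that share was lower, at 0.381% to 0.563%, and overlapped both. Of its exon bases, 915 are shared on the opposite strand with *C10orf55*, and since the strand setting of the counting is not given in the sources used here, reads of the 2 genes cannot be told apart.

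Tissue-type plasminogen activator, encoded by *PLAT* (chr8:42032236-42065227, GRCh37, minus strand, 14 exons), varied within groups with the replicate number. Levels ran from 601 to 888 CPM in growing cells (median 777), from 588 to 1136 CPM in shHMGA1 (median 853), from 809 to 1143 CPM in RIS (median 959) and from 623 to 928 CPM in RIS+shHMGA1 (median 800.2). RIS exceeded growing cells by 0.38 ± 0.15 on the log2 scale (edgeR adjusted p = 0.091), and by 0.40 ± 0.16 without the libraries that stand apart (edgeR adjusted p = 0.039), which misses the threshold. RIS+shHMGA1 was lower than RIS in 6 of 6 pairs of libraries that share a replicate number, and no more than that number, by −0.10 to −0.54, but the fitted difference of −0.31 ± 0.15 did not pass (95% interval −0.62 to 0.011, edgeR adjusted p = 0.11).

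The libraries numbered 5 and 6 were the lowest for *PLAT* without 4OHT and among the highest with it. Growing replicates 5 and 6 held 601 and 602 CPM, against 762 to 888 CPM in replicates 1 to 4, and shHMGA1 replicates 5 and 6 held 588 and 637 CPM, against 796 to 1136 CPM. RIS replicates 5 and 6 held 1143 and 1075 CPM, against 809 to 989 CPM in the others. In a fit on the 8 libraries of these numbers, which include neither library that stands apart, *PLAT* rose 0.87 ± 0.18 in RIS over growing cells (edgeR adjusted p = 0.0032), whereas in the 14 other libraries that do not stand apart the difference was 0.099 ± 0.13 (edgeR adjusted p = 0.53). In RIS+shHMGA1 against shHMGA1 the values were 0.59 ± 0.18 for numbers 5 and 6 (edgeR adjusted p = 0.022) and −0.38 ± 0.12 for numbers 1 to 4 (edgeR adjusted p = 0.0068), neither of which passed both thresholds. The difference between the sets of numbers was not itself tested, the split was made after the values were seen, and no label names a batch. In the hairpin libraries, *HMGA1* was also lower in numbers 5 and 6, at 54.4 to 75.1 CPM against 98.7 to 262 CPM, and its part in these values was not tested.

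**Figure D2:**
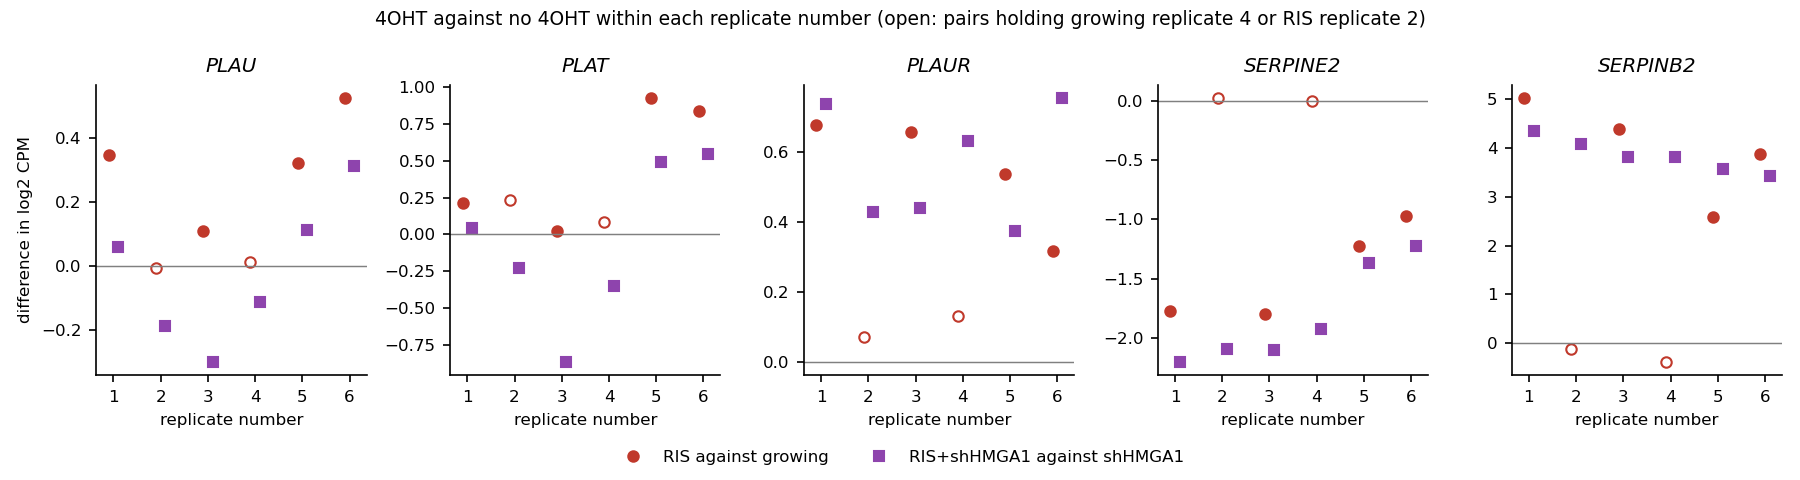
Difference in log2 CPM between 4OHT and no agent within each replicate number, for vector cells (circles) and hairpin cells (squares). Open circles are the pairs that hold growing replicate 4 or RIS replicate 2. For *PLAT* the circles lie at 0.93 and 0.84 in numbers 5 and 6 and between 0.026 and 0.23 in the others.

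*PLAUR* encodes the urokinase receptor, a glycolipid-anchored protein that places urokinase at the cell surface (chr19:44150247-44174699, GRCh37, minus strand, 7 exons in the canonical transcript). Growing cells held 190.4 to 252 CPM without replicate 4, which stood at 317 CPM, and shHMGA1 cells held 199 to 234 CPM (median 218). RIS libraries held 314 to 347 CPM without replicate 2, which stood at 200.3 CPM, and RIS+shHMGA1 libraries held 282 to 387 CPM (median 315). In these CPM the libraries without and with 4OHT did not overlap, apart from the 2 that stand apart. As a share of all counts, without the TMM factors, hairpin cells did overlap. *PLAUR* then took 0.0218% to 0.0266% in shHMGA1 and 0.0220% to 0.0360% in RIS+shHMGA1. With all libraries, RIS exceeded growing cells by 0.40 ± 0.13 (edgeR adjusted p = 0.044), and without those 2 *PLAUR* rose by 0.61 ± 0.098 (edgeR adjusted p = 1.1e-05), a 1.52-fold increase. Leaving out only 1 of the 2 gave 0.51 (growing replicate 4, edgeR adjusted p = 0.0026) or 0.50 (RIS replicate 2, edgeR adjusted p = 0.0017), under the fold threshold. The difference was 0.74 ± 0.10 in numbers 1 to 4 without the 2 libraries (edgeR adjusted p = 4.3e-06), and in numbers 5 and 6 it did not pass, at 0.41 ± 0.19 (edgeR adjusted p = 0.13). RIS+shHMGA1 exceeded shHMGA1 by 0.57 ± 0.13 (95% interval 0.29 to 0.84, edgeR adjusted p = 0.0014) in 6 of 6 same-numbered pairs, just under the fold threshold. The value passed in DESeq2 (0.59, DESeq2 adjusted p = 5.3e-05), with another scaling, RLE (0.59, edgeR adjusted p = 0.0011), and without shHMGA1 replicate 3 or 6 or RIS+shHMGA1 replicate 2 or 5 (0.58 to 0.60). Against growing cells RIS+shHMGA1 was 0.44 ± 0.13 higher (edgeR adjusted p = 0.0061), or 0.54 ± 0.094 without the 2 libraries (edgeR adjusted p = 1.5e-05), also under that threshold, which it just passed in numbers 1 to 4 without them (0.58, edgeR adjusted p = 2.3e-05). The 95% interval of the hairpin's difference in *PLAUR* was −0.40 to 0.15 without 4OHT and −0.24 to 0.31 with it.

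Because *PLAUR*, *SERPINB2* and *SERPINE2* moved with 4OHT and *PLAU* and *PLAT* mostly did not, the RefSeq promoter windows of the 5 genes were searched for letters of AP-1 (TGANTCA) and C/EBP (TTGCNNAA), motifs of factor families known from stress and senescence programmes. Windows ran from 250 bases before to 50 after a start site on GRCh38.p14, both strands were read, and no AP-1 match overlapped a C/EBP match. Of 35116 windows of this length in the table, 7.71% held the AP-1 letters and 10.5% the C/EBP letters. The *PLAUR* window held both, the AP-1 letters beginning at position −186 and the C/EBP letters at −62 from the start site. *SERPINB2* had an AP-1 match at −102 and no C/EBP match. Of the 2 *PLAU* windows, 1 had a C/EBP match at −122 and neither had an AP-1 match, the 2 *SERPINE2* windows had a match of neither, and *PLAT* had no window in the table. The stretches of *PLAUR* and *PLAU* are shown on the gene's strand with the matched letters in capitals, at chr19:44174490-44174518, chr19:44174365-44174394 and chr10:75670757-75670786 on GRCh37, each found there at 1 position of the chromosome:
PLAUR, AP-1: tcacaactccaTGAGTCAgggccgagcca
PLAUR, C/EBP (reverse complement): ctgactcgctcTTTCGCAAaacgtctggga
PLAU, C/EBP: ctttgtgagcgTTGCGGAAgcacgcggggt

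A match describes the letters in the window and no binding was measured here. The receptor's stretches are shown since *PLAUR* was the 1 gene with both motifs, and that of *PLAU* since it is the gene of the receptor's ligand and holds the C/EBP letters without having passed the test.

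*SERPINE2* encodes protease nexin-1, a secreted serpin that inhibits thrombin, urokinase and tissue-type activator (chr2:224839762-224904035, GRCh37, minus strand, 9 exons in the canonical transcript). It was the member that fell. Growing replicates 1, 2, 3, 5 and 6 held 294, 294, 299.8, 359 and 358 CPM, whereas replicate 4 held 72.3 CPM, and shHMGA1 libraries held 348 to 427 CPM (median 410.3). RIS replicates 1, 3, 4, 5 and 6 held 86.0, 85.8, 72.1, 153 and 182 CPM, whereas replicate 2 held 299 CPM, and RIS+shHMGA1 libraries held 80.8 to 183 CPM (median 94.7). Libraries with 4OHT lay below those without, apart from the 2 that stand apart, and apart from RIS replicate 2 numbers 5 and 6 were the highest within both 4OHT groups.

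In RIS+shHMGA1 against shHMGA1, *SERPINE2* fell by 1.75 ± 0.34 on the log2 scale (SE, 95% interval −2.46 to −1.05, edgeR adjusted p = 4e-04), to 0.297 of the level without 4OHT. The groups did not overlap, and hence 6 of 6 same-numbered pairs fell. Without the libraries that stand apart, which neither group holds, the fall was 1.75 ± 0.21 (edgeR adjusted p = 1.3e-07). RIS against growing was −0.93 ± 0.33 with all libraries (edgeR adjusted p = 0.06) and fell by 1.47 ± 0.23 without the pair that stands apart (edgeR adjusted p = 7.6e-06). It also passed without growing replicate 4 alone (−1.13) or RIS replicate 2 alone (−1.27). The fall was 1.86 ± 0.11 in numbers 1 to 4 without that pair (edgeR adjusted p = 2.9e-11) and 1.11 ± 0.18 in numbers 5 and 6 (edgeR adjusted p = 0.00067). The hairpin did not change *SERPINE2* past the threshold. Levels in shHMGA1 exceeded those in growing cells in 6 of 6 same-numbered pairs. The excess was 2.30 in number 4, which holds growing replicate 4, and 0.19 to 0.49 in the others. The fitted difference was 0.50 ± 0.33 (95% interval −0.19 to 1.18, edgeR adjusted p = 0.56), and 0.30 ± 0.22 without the libraries that stand apart. RIS+shHMGA1 and RIS differed by −0.32 (−1.01 to 0.36), a difference that turned to 0.014 (−0.44 to 0.46) without RIS replicate 2 and growing replicate 4.

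*SERPINB2* encodes plasminogen activator inhibitor 2, a clade B serpin that inhibits urokinase and tissue-type activator and, having no cleaved signal peptide, stays largely in the cell (chr18:61538926-61571122, GRCh37, plus strand, 8 exons in the canonical transcript). Growing replicates 1, 2, 3, 5 and 6 held 332, 466, 577, 1085 and 604 CPM, whereas replicate 4 held 15038 CPM. shHMGA1 replicates 1 to 6 held 944, 1167, 1489.95, 1484, 1367 and 1422 CPM. RIS replicates 1, 3, 4, 5 and 6 held 10799, 12093, 11509, 6469 and 8847 CPM, whereas replicate 2 held 432 CPM. RIS+shHMGA1 was the highest group, with 15208 CPM in the lowest library, 19337 CPM at the median and 20855 CPM in the highest, and did not overlap any other group. In these 6 libraries this gene alone took 1.41% to 1.63% of all counts, against 0.0362% to 0.120% in growing cells without replicate 4.

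Without the libraries that stand apart, *SERPINB2* rose 16.2-fold in RIS over growing cells (log2 fold change 4.02 ± 0.26, edgeR adjusted p = 3e-12), from 613 ± 285 CPM (SD, n = 5) to 9943 ± 2296 CPM (SD, n = 5). With all 24 libraries the difference was 1.47 ± 0.75 (95% interval −0.090 to 3.03, edgeR adjusted p = 0.18), leaving out growing replicate 4 alone brought it to 3.77 (edgeR adjusted p = 1.4e-05), and leaving out RIS replicate 2 alone to 1.72, which did not pass (edgeR adjusted p = 0.056). The rise was 4.65 ± 0.21 in numbers 1 to 4 without that pair (edgeR adjusted p = 3.9e-13) and 3.17 ± 0.30 in numbers 5 and 6 (edgeR adjusted p = 8.2e-06). In hairpin cells the rise under 4OHT was 3.83 ± 0.83 (edgeR adjusted p = 0.00081), and its size needed no such choice. This was a 14.2-fold increase from 1313 ± 216 CPM (SD, n = 6) to 18626 ± 2351 CPM (SD, n = 6). The groups did not overlap, and same-numbered pairs hence rose in 6 of 6 cases, by 3.42 to 4.33. The SE draws on the spread of all 24 libraries. Without the libraries that stand apart, the rise was 3.83 ± 0.23 (edgeR adjusted p = 9.9e-13). RIS+shHMGA1 exceeded growing cells by 2.63 ± 0.79 (edgeR adjusted p = 0.0057), or by 4.93 ± 0.27 without the pair that stands apart (edgeR adjusted p = 8e-14). With growing replicate 4 kept, this call was lost when growing replicate 1, 2, 3, 5 or 6 was left out, with values of 2.39 to 2.45.

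**Figure D3:**
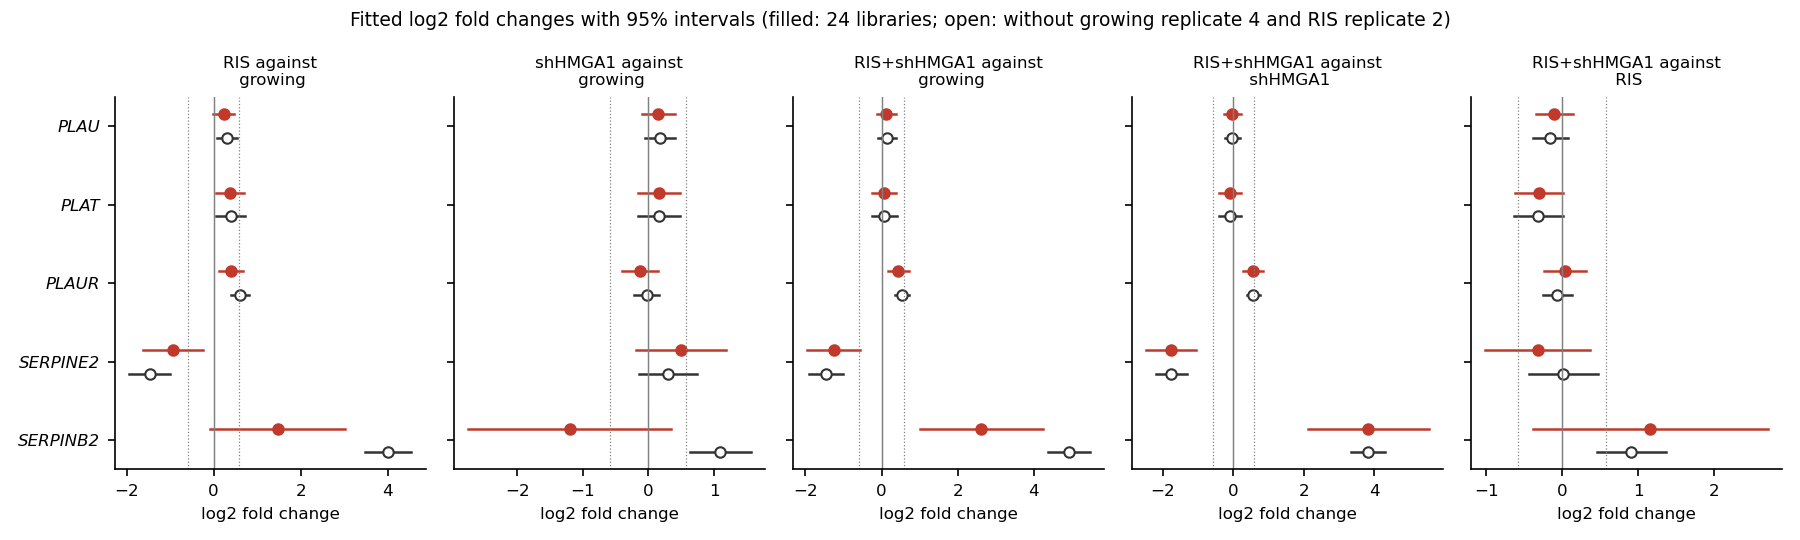
Fitted log2 fold change of each gene in 5 contrasts, with 95% intervals, for all 24 libraries (filled) and without growing replicate 4 and RIS replicate 2 (open). Dotted lines mark the fold threshold of 0.58 in either direction. The open points for *SERPINB2* lie at 4.02, 1.10, 4.93, 3.83 and 0.91, and the filled ones at 1.47, −1.20, 2.63, 3.83 and 1.16.

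For the hairpin, *SERPINB2* was the 1 member that passed, and it did so only in fits without both libraries that stand apart. It was higher in RIS+shHMGA1 than in RIS in 6 of 6 same-numbered pairs, by 0.78 to 1.33 in the 5 pairs without RIS replicate 2 and by 5.50 in the pair that holds it. The fitted difference was 1.16 ± 0.75 (edgeR adjusted p = 0.21) with all libraries, and *SERPINB2* rose 1.87-fold without the pair that stands apart (0.91 ± 0.22, edgeR adjusted p = 0.004). Leaving out RIS replicate 2 alone gave the same 0.91 but did not pass (edgeR adjusted p = 0.34). That fit still held growing replicate 4, which is in neither group of this contrast but enters the shared spread. In numbers 5 and 6 alone the difference was 1.10 ± 0.28 (edgeR adjusted p = 0.039). In numbers 1 to 4 without the libraries that stand apart *SERPINB2* rose by 0.78 ± 0.17 (edgeR adjusted p = 0.003). In cells without 4OHT, shHMGA1 exceeded growing cells in 5 of 6 same-numbered pairs, by 0.33 to 1.51, and was 3.34 lower in number 4. The fitted value was −1.20 ± 0.75 with all libraries (edgeR adjusted p = 0.52) and a rise of 1.10 ± 0.22, or 2.14-fold, without the pair that stands apart (edgeR adjusted p = 0.0032), although growing replicate 5 with 1085 CPM still overlapped the shHMGA1 replicate at 944 CPM. Leaving out growing replicate 4 alone also gave 1.10 but did not pass (edgeR adjusted p = 0.12), in a fit whose shared spread still drew on RIS replicate 2. The value was 1.48 ± 0.18 in numbers 1 to 4 without the pair (edgeR adjusted p = 3e-05) and 0.70 ± 0.27 in numbers 5 and 6, which did not pass (edgeR adjusted p = 0.28). The change under 4OHT differed between hairpin and vector cells by 2.36 ± 1.06 with all libraries (edgeR adjusted p = 0.43) and by −0.19 ± 0.31 without those 2 (edgeR adjusted p = 0.99), and no difference was detectable in either fit. Of the exon bases of *SERPINB2*, 547 are shared on the same strand with the annotated gene ENSG00000289724.

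By counts, 0 of the 5 genes passed in RIS against growing with all libraries in edgeR, where 0% of the 13356 genes did. At an unadjusted p under 0.05 the numbers were 3 of the 5 and 4407 of all genes, and DESeq2, which gave *SERPINB2* no adjusted p, called 0 of the other 4 and 829 genes in all. Without the pair that stands apart, 2 of the 5 rose (*PLAUR*, *SERPINB2*), where 19.2% of genes rose, and 1 fell (*SERPINE2*), where 20.5% fell. The median of the 5 log2 fold changes was 0.40, against −0.0068 over all genes tested. In RIS+shHMGA1 against shHMGA1, 1 rose (*SERPINB2*) and 1 fell (*SERPINE2*) in edgeR, where 19.6% of genes rose and 19.5% fell, and the same counts without those libraries stood beside 22.5% and 21.9%. The same 2 genes passed in RIS+shHMGA1 against growing, where 22.0% of genes rose and 23.9% fell, or 28.3% and 28.5% without them. Of the 4 members with an adjusted p in DESeq2, that tool called *PLAUR* and *SERPINE2* in the former contrast and *SERPINE2* in the latter. The members' shares were thus of the order of the share of all genes. Groups without overlap and agreement over same-numbered pairs were not counted over all genes, so that no such share stands beside those statements. Where groups do not overlap, all same-numbered pairs must agree in direction, and their agreement adds nothing.

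For the hairpin, 0 of the 5 passed in shHMGA1 against growing in edgeR, where 0.270% of genes did. None had an unadjusted p under 0.05 (0 of 5), and DESeq2 called 0 of 4. Without the libraries that stand apart, 1 passed (*SERPINB2*, higher), where 2.59% of genes did. In RIS+shHMGA1 against RIS, 0 of the 5 passed, where 2.55% of genes did, again with 0 at an unadjusted p under 0.05 and 0 of 4 by DESeq2, and without those libraries 1 passed, *SERPINB2* once more, where 12.5% of genes did. For the difference of the 4OHT change between hairpin and vector cells, 0 of the 5 and 0% of genes passed in edgeR, with 2 of the 5 and 1371 genes at an unadjusted p under 0.05 and 0 of 4 members by DESeq2, and 0 of the 5 and 0.00745% of genes without the libraries that stand apart. The contrasts against growing cells share those libraries, as the contrasts of RIS+shHMGA1 share theirs.

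Divided by the length of the longest annotated transcript, levels can be set side by side between genes. In growing cells without replicate 4, *PLAU* led with 1874 ± 67.8 CPM per kb (SD, n = 5). It was followed by *SERPINB2* with 284 ± 132, *PLAT* with 216 ± 39.8, *PLAUR* with 137 ± 14.5 and *SERPINE2* with 53.6 ± 5.75 CPM per kb. *SERPINB2* (154 to 504 CPM per kb) and *PLAT* (174 to 256 CPM per kb) overlapped in this order and the other neighbours did not. In shHMGA1 the order was the same, with *SERPINB2* at 609 ± 100.2 CPM per kb (SD, n = 6) clear of *PLAT* at 242 ± 59.8 CPM per kb.

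With 4OHT *SERPINB2* also lay above *PLAU*. It reached 4614 ± 1065 CPM per kb in RIS without replicate 2 (SD, n = 5) against 2322 ± 269.8 CPM per kb of *PLAU*. In RIS+shHMGA1 it reached 8643 ± 1091 CPM per kb (SD, n = 6) against 2079 ± 157 CPM per kb of *PLAU*. By this length *SERPINB2* and *PLAU* overlapped in neither group. By the union of exons they overlapped in RIS without replicate 2 (*SERPINB2* 2360 to 4412, *PLAU* 1870 to 2464 CPM per kb). *PLAT* (284 ± 38.4 in RIS, 228 ± 29.1 in RIS+shHMGA1) and *PLAUR* (208 ± 8.30 in RIS, 199 ± 23.0 in RIS+shHMGA1) followed. These 2 overlapped in RIS+shHMGA1 (*PLAT* 179.98 to 268, *PLAUR* 175 to 240.4 CPM per kb) but not in RIS without replicate 2. *SERPINE2* was last, at 19.3 ± 8.13 and 19.5 ± 7.16 CPM per kb. The longest transcripts of *PLAT* and *SERPINE2* have 2 exons, and the union of exons gave the same order of the means in each of these groups. So did the canonical transcript, except in shHMGA1, where it put *SERPINE2* (177 ± 14.8 CPM per kb, SD, n = 6) above *PLAUR* (158 ± 11.2 CPM per kb), and in growing cells it let *SERPINE2* (132 to 161 CPM per kb) and *PLAUR* (139 to 184 CPM per kb) overlap.

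**Figure D4:**
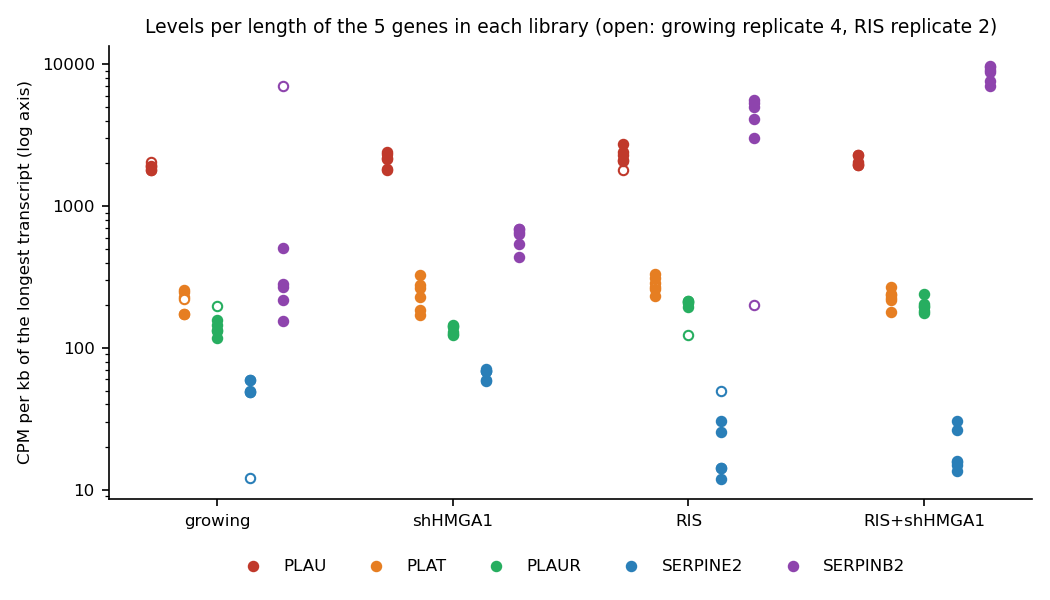
CPM per kb of the longest annotated transcript on a log axis, for each gene in each library by group, with growing replicate 4 and RIS replicate 2 as open circles. *PLAU* stays between 1793 and 2734 CPM per kb, and *SERPINB2* lies above it in RIS+shHMGA1, at 7057 to 9677 CPM per kb.

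Other genes of the plasminogen system were read from a list of 16. The zymogen and several partners were near the limit of detection, and 6 of the 16 did not pass the filter on low counts: *PLG*, plasminogen itself, had 0 counts in every library, *KLKB1* reached 5, *VTN* 7, *SERPINF2* and *SERPINA5* 2 each and *CPB2* 1. Of the 10 tested, 3 rose and 2 fell in RIS+shHMGA1 against shHMGA1, where 19.6% of all genes rose and 19.5% fell, and the median over the 10 was 0.15, against −0.023 over all genes. *PLGRKT*, a plasminogen receptor of the cell membrane, rose from 39.3 ± 9.16 to 109.8 ± 32.7 CPM (SD, n = 6 each; log2 fold change 1.48 ± 0.41, edgeR adjusted p = 0.004). *TFPI2*, a Kunitz-type inhibitor of plasmin that fibroblasts secrete into matrix, rose from 1028 ± 427 to 5995 ± 751 CPM (2.54 ± 0.71, edgeR adjusted p = 0.0043). *SERPINI1*, neuroserpin, an inhibitor of tissue-type activator, rose at a low level, from 2.32 ± 0.612 to 6.75 ± 0.933 CPM (1.54 ± 0.27, edgeR adjusted p = 0.00025).

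The 2 genes that fell in this contrast were *MRC2*, a collagen receptor also known as the urokinase receptor-associated protein, from 412 ± 57.0 to 162 ± 27.3 CPM (−1.34 ± 0.33, edgeR adjusted p = 0.0017), and *A2M*, the broad protease trap alpha-2-macroglobulin, from 4.21 ± 0.479 to 1.82 ± 0.430 CPM (−1.19 ± 0.32, edgeR adjusted p = 0.0036). *LRP1*, the endocytic receptor that clears activator and inhibitor complexes, differed by −0.68 ± 0.29 (edgeR adjusted p = 0.044) and fell by the same amount without the pair that stands apart (edgeR adjusted p = 0.00085). In RIS+shHMGA1 against RIS, 0 of the 10 passed in edgeR, 5 had an unadjusted p under 0.05 and 0 of 9 passed in DESeq2, and without that pair *PLGRKT* rose by 1.03 ± 0.25 (edgeR adjusted p = 0.0036), where 12.5% of all genes passed. In RIS against growing, 0 of the 10 passed with all libraries in edgeR, with 4 at an unadjusted p under 0.05 and 0 in DESeq2, whereas without the pair *PLGRKT* (1.24), *SERPINI1* (1.28) and *TFPI2* (3.45) rose and *LRP1* (−1.14), *MRC2* (−1.19) and *A2M* (−1.49) fell, where 19.2% of all genes rose and 20.5% fell. In shHMGA1 against growing, 0 passed with all libraries in edgeR, with 1 at an unadjusted p under 0.05 and 0 of 10 in DESeq2. Without the pair, *TFPI2* rose by 1.70 ± 0.32 (edgeR adjusted p = 0.0018) and *LRP1* fell by 0.98 ± 0.17 (edgeR adjusted p = 0.00095), where 2.59% of all genes passed.

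*SERPINB2* lies in a cluster of clade B serpin genes on chromosome 18 that spans 542.8 kb on GRCh37, and 10 genes of the cluster were read beside it. Of these, 5 did not pass the filter on low counts: *SERPINB5* and *SERPINB11* reached 2 counts, *SERPINB12* and *SERPINB13* 1 and *HMSD* 7. The other 5 rose in RIS+shHMGA1 against shHMGA1, where 19.6% of all genes rose. *SERPINB7*, which starts 118.8 kb before *SERPINB2*, held 52.2 to 75.2 CPM in shHMGA1 and 202 to 558 CPM in RIS+shHMGA1 (2.83 ± 0.63, edgeR adjusted p = 0.00095). *SERPINB8*, a cytosolic inhibitor of furin that starts 98.3 kb after it, held 84.3 to 108.5 and 195 to 265 CPM (1.31 ± 0.27, edgeR adjusted p = 0.00055). *SERPINB4*, an inhibitor of serine and cysteine proteases, held 0.436 to 8.95 and 202 to 523 CPM (6.34 ± 1.58, edgeR adjusted p = 0.0021).

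*SERPINB3* and *SERPINB10* had so few counts without 4OHT that their fitted folds depend on the prior count. They passed the filter on low counts through libraries where they are high, mostly those with 4OHT. Their place among the genes that rose is therefore partly fixed by the filter. *SERPINB3* had 0 to 2 counts in shHMGA1 libraries and 69 to 342 in RIS+shHMGA1 libraries, and *SERPINB10*, which starts 36.3 kb after *SERPINB2*, had 1 to 6 and 9 to 40 counts. On the same strand *SERPINB10* shares 293 exon bases with ENSG00000289724, the annotated gene that also shares exon bases with *SERPINB2*. The part of such reads in its counts was not tested. *SERPINB3* and *SERPINB4* are near-identical copies whose reads the counting may have split between them, and *SERPINB3* shares 620 exon bases with *SERPINB11* on the opposite strand. In RIS against growing, 0 of the 5 passed with all libraries in edgeR, 2 had an unadjusted p under 0.05 and DESeq2 called 1, *SERPINB10*, whereas without the libraries that stand apart all 5 rose, where 19.2% of all genes did, *SERPINB7* by 2.57 ± 0.35 (edgeR adjusted p = 1.2e-06) and *SERPINB8* by 1.15 ± 0.12 (edgeR adjusted p = 2.5e-08). With the hairpin as the contrast, 0 of the 5 passed in RIS+shHMGA1 against RIS in edgeR, with 0 at an unadjusted p under 0.05 and 0 of 4 in DESeq2, and 0 passed without the libraries that stand apart. The hairpin difference of *SERPINB2* in that fit, 0.91, thus stood beside values of 0.38 for *SERPINB8* (edgeR adjusted p = 0.015), 0.46 for *SERPINB4* (edgeR adjusted p = 0.43) and 0.49 for *SERPINB7* (edgeR adjusted p = 0.22), and the differences between these genes were not tested.

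**Figure D5:**
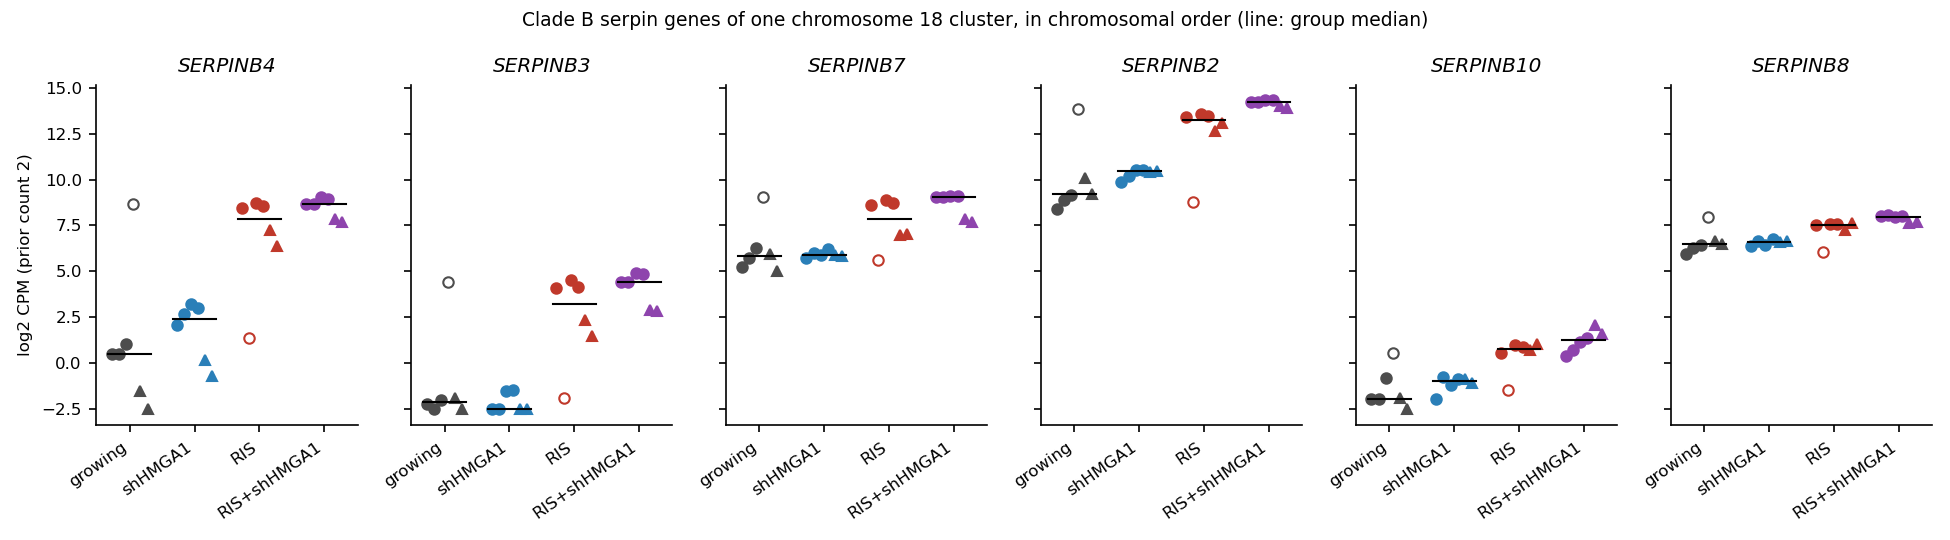
Level of 6 clade B serpin genes in chromosomal order, in log2 CPM with a prior count of 2, in each library by group. Triangles are the libraries numbered 5 and 6, open circles growing replicate 4 and RIS replicate 2, and lines group medians. Apart from RIS replicate 2, the libraries with 4OHT lie above the shHMGA1 libraries for every gene shown.

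The genes whose levels across the 24 libraries were most like those of each member were read among 10745 genes, by Pearson's r of log2 CPM. The libraries share the 4 groups, so that r mostly follows the groups and is given as a description. For *SERPINB2* they were *TCIM* (r = 0.995), *SQOR* (0.993) and *RIPK2* (0.993), for *SERPINE2* they were *C1R* (0.990), *CDH6* (0.985) and the gene with Entrez identifier 100287705 (0.978), and for *PLAUR* they were *BID* (0.976), *OXA1L* (0.970) and *TIMP1* (0.970). The activators had looser matches. For *PLAT* they were *PARM1* (0.809), *TMEM132A* (0.775) and *B4GAT1* (0.747), and for *PLAU* they were its antisense neighbour *C10orf55* (0.953), with which it shares exon bases, *SRPX2* (0.736) and *BMP2* (0.730).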

How the data were processed

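The authors mapped reads of stranded mRNA libraries to hg19 with STAR 2.5.0b, removed reads with a mapping quality under 20, used cutadapt 1.10.0 (both versions from the submitters' processing notes) and deposited raw counts per Entrez gene from Rsubread. Its version, gene annotation and strand setting are not given in the sources used here.

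Samples were grouped by their labels. Counts were tested with edgeR 4.0.16 (R 4.3.3, limma 3.58.1): filterByExpr, TMM, a quasi-likelihood fit of 4 group means over 24 libraries, Benjamini-Hochberg adjustment over 13356 genes, FDR under 0.01 and absolute log2 fold change over 0.58, the study's thresholds. SE is the log2 fold change divided by the square root of F. The members, gene lists, markers and the rule for named genes (listed genes that passed in RIS+shHMGA1 against shHMGA1 or RIS, and the 3 genes most alike) were chosen with earlier results of these data known. Alternatives were DESeq2 1.42.0, RLE, no filter, a replicate block, contrast samples only and libraries left out. Transcript lengths and overlaps came from GENCODE v44lift37, symbols (23696 identifiers matched) and promoters from RefSeq. Scripts were tested on simulated data. No 2 libraries of a group agreed within sampling noise. Protein sequences and inhibitors of the activators beyond the listed genes were not analysed here.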

Additional observations from a re-analysis of the deposited data

Results flagged for a closer look

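In each group of 6 libraries, the gap of the highest or lowest library to its nearest neighbour was divided by the group's range, and values above Dixon's 95% critical value were taken as a library far from the others. Of 64 groups checked, 18 exceeded it, where independent checks would give about 1 in 20, or 3.2, by chance. The checks share libraries, and the listed genes among them were those that passed in RIS+shHMGA1 against shHMGA1 or against RIS. The value of 3.2 is therefore no fair expectation for them. Growing replicate 4 gave 8 of them and RIS replicate 2 gave 6.

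Among the members, growing replicate 4 stood apart for *SERPINE2* (0.875) and *SERPINB2* (0.689), and RIS replicate 2 for *PLAUR* (0.815) and *SERPINB2* (0.812). *PLAU* and *PLAT* had no such library.

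In the plasminogen list, growing replicate 4 stood apart for *MRC2* (0.676) and *A2M* (0.861), RIS+shHMGA1 replicate 4 for *A2M* (0.705) and RIS replicate 2 for *TFPI2* (0.631). Among the clade B genes, growing replicate 4 stood apart for *SERPINB4* (0.684), *SERPINB3* (0.915), *SERPINB7* (0.697) and *SERPINB8* (0.636). RIS replicate 2 did so for *SERPINB4* (0.685), *SERPINB10* (0.810) and *SERPINB8* (0.785), and shHMGA1 replicate 1 for *SERPINB10* (0.634). Total counts stood apart in growing replicate 1 (0.796) and RIS replicate 3 (0.684).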

How the results depend on the processing

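Without growing replicate 4 and RIS replicate 2, the members passing went from 0 to 3 in RIS against growing, from 0 to 1 in shHMGA1 against growing and from 0 to 1 in RIS+shHMGA1 against RIS, and these 3 counts were the same in numbers 1 to 4 without them. All-gene calls went from 0 to 5331, from 36 to 348 and from 341 to 1677, with 69.2% and 80% of the last higher. In these 3 contrasts they were 6444, 964 and 1404 in numbers 1 to 4 without the pair, 2176, 28 and 64 in numbers 5 and 6, 829, 99 and 1573 in DESeq2, and 0, 23 and 189 without the filter on low counts. With 1 library left out they ran from 0 to 3420, 10 to 67 and 62 to 2555, each highest without growing replicate 4. Numbers 5 and 6 alone gave 3 members in RIS against growing (*PLAT*, *SERPINE2* and *SERPINB2*). Samples of the contrast alone gave 1 in place of 2 in RIS+shHMGA1 against growing (*SERPINB2* 2.62). Leaving out 1 library gave 0 to 2 members in RIS against growing (2 without growing replicate 4, 1 without RIS replicate 2) and 1 to 2 in RIS+shHMGA1 against growing. The cause was not tested.

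Signs turned without the pair for *SERPINB2* in shHMGA1 against growing (1.10), *PLAUR* (−0.065) and *SERPINE2* (0.014) in RIS+shHMGA1 against RIS, and *PLAUR* (−0.039) and *SERPINB2* (−0.19) in the interaction. In numbers 1 to 4 without it they turned for the same 5 (1.48, −0.16, 0.12, −0.21 and −0.70), *PLAUR* in shHMGA1 against growing (0.048) and *PLAT* in RIS+shHMGA1 against growing (−0.20). In numbers 5 and 6 they turned for *PLAU* (−0.10), *PLAT* (−3.53e-05) and *SERPINB2* (0.70) in shHMGA1 against growing, *PLAU* (0.29) and *PLAT* (0.59) in RIS+shHMGA1 against shHMGA1 and *SERPINE2* (0.088) in RIS+shHMGA1 against RIS. *PLAU* in RIS+shHMGA1 against shHMGA1 was 0.0031 in DESeq2 and 0.0030 with RLE. With 1 library left out, signs turned within −1.44 to 1.10 (*SERPINB2*, shHMGA1 against growing), −0.068 to 0.015 (*PLAU*) and −0.17 to 0.019 (*PLAT*, RIS+shHMGA1 against shHMGA1), and −0.065 to 0.069 (*PLAUR*) and −0.50 to 0.014 (*SERPINE2*, RIS+shHMGA1 against RIS). The interaction was −0.039 for *PLAUR* and −0.19 for *SERPINB2* without the pair. In fits with 1 library left out it reached at most 0.22 for *PLAUR* and 2.59 for *SERPINB2*. DESeq2 gave *SERPINB2* no adjusted p, and its counts of members are over the other 4. The fits by number were added after seeing the data.

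Same-numbered libraries of different groups correlated at −0.59 to 0.83 in their deviations (36 pairs, mean 0.18, 24 over 0.1), against a mean of −0.050 for different numbers (180 pairs, 57 over 0.1), and 10 of 24 libraries correlated best with their own number. Since not every pair was over 0.1, the numbers were not taken to pair the samples. The deviations were from group means that included growing replicate 4 and RIS replicate 2, and the check was not repeated without them. With the replicate block, 0, 0, 2, 2, 0 and 0 members passed in the 6 contrasts, and *SERPINB2* in shHMGA1 against growing was 0.11. All-gene calls in RIS+shHMGA1 against RIS went to 1637. The block without the pair gave 3, 1 and 1 members and turned signs at 1.09, −0.045, 0.049, −0.028 and −0.15, in the order above.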
